A study of Mus musculus and Homo sapiens with 67 samples.

Results

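The 10 KLF transcription factors described here are KLF2, KLF3, KLF4, KLF5, KLF6, KLF7, KLF9, KLF10, KLF11 and KLF13. They were chosen by gene symbol, matched without regard to case, among 60564 gene rows of the human tables and 55335 of the mouse tables, and all 10 were found in each of 4 expression tables. The tables hold PSN1 and SW1990 cells, which are established human pancreatic cancer lines, KPC mouse pancreatic cancer cells, and KPC tumours grown orthotopically, that is, in the mouse pancreas. Each table has the same 4 arms: the combination of both drugs, RMC-6236 (an inhibitor of active RAS) alone, tazemetostat (an inhibitor of the histone methyltransferase EZH2) alone, and a control. The control was DMSO in cells and vehicle in tumour-bearing mice. There were 3 libraries per arm in cells and 4 per arm in tumours, 52 in all. The labels give no dose, no duration of treatment, no genotype of the KPC line, and neither strain nor age of the mice, and they do not say that cell libraries came from separate cultures. P-values in cells therefore measure only the spread between these libraries, which may be technical.

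KLF proteins bind GC-rich and CACCC-like sequences through zinc fingers at the carboxyl end. The family falls into activators (KLF2, KLF4, KLF5, KLF6 and KLF7 here), a repressor that works through the CtBP corepressors (KLF3), and repressors that recruit the SIN3A corepressor (KLF9, KLF10, KLF11 and KLF13). In pancreatic ductal cancer KLF5 is known as a factor of the epithelial state and KLF4 as a factor of epithelial differentiation, while KLF10 and KLF11 were first described as early genes of TGF-beta signalling.

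Among the mouse genes, 8 of 10 members had a promoter entry in the RefSeq table of build GRCm38.p6, matched by symbol. The 250 bases before the start site are shown for Klf4 and Klf7, the members with the largest differences from control in KPC cells (with tazemetostat and with RMC-6236), and for Klf6, which was lower in tumours with RMC-6236. Capitals mark matches on either strand to the motifs searched, which were the KLF core CACCC, the GC box GGGCGG, the NF-Y motif CCAAT, the TATA box TATAAA, the cyclic AMP half-site TGACG and the AP-1 motif TGANTCA, and adjoining or overlapping matches run together.
Klf4, chr4:55532476-55532725, - strand: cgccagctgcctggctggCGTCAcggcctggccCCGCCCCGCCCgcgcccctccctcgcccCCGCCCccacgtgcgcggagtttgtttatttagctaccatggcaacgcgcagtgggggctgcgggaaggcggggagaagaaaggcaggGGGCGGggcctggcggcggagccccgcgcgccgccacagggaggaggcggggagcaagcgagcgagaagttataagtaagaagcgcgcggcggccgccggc
Klf6, chr13:5861239-5861488, + strand: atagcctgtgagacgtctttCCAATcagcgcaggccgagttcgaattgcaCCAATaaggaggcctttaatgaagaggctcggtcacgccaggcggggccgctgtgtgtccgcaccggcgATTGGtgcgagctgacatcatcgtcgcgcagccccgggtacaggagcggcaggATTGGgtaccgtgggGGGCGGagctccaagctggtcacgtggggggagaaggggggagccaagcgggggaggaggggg
Klf7, chr1:64121390-64121639, - strand: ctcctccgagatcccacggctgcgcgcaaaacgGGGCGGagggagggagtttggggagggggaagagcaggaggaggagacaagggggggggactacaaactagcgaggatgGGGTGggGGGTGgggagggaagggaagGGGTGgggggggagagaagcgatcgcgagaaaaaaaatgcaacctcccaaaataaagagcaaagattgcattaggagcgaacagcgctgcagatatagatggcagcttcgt
The GC box GGGCGG was found in 7 of the 8 Klf windows, while 32.7% of all 32851 windows of this length in the table hold it. Klf4 held 4 GC boxes and Klf6 and Klf7 held 1 each. A CACCC match was present in 5 of 8 windows, against 52.0% of all windows, and Klf7 had 3 of them. The TGACG half-site was present in 4 of 8, Klf4 included, against 17.8% of all windows. CCAAT was present in 4 of 8 (33.9% of all) with 4 matches in Klf6, TGANTCA in 1 of 8 (6.75% of all), and TATAAA in 0 of 8 (12.4% of all). The 8 windows were 59.2% to 78.4% G or C. The composition of all windows was not computed, so the motif shares are not matched for G and C content. A match is a description of these letters and names no binding site.

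Levels are in FPKM, which is per transcript length, so members can be ranked within a table. In PSN1 controls the highest was KLF10 at 17.2 FPKM on average, followed by KLF13, KLF5 and KLF6 (7.78, 7.39 and 6.51), KLF9 (6.11), KLF4 (5.02), KLF3 and KLF11 (3.34 and 3.27), and KLF2 and KLF7 (1.64 and 1.56). Control libraries of KLF13 and KLF5, of KLF5 and KLF6, of KLF6 and KLF9, of KLF3 and KLF11 and of KLF2 and KLF7 overlapped, so these neighbours were not separated. SW1990 controls were led by KLF5 at 51.5 FPKM, with KLF10 (19.9), KLF6 (10.04), KLF3 (8.91), KLF13 (4.003), KLF2 (3.47), KLF7 and KLF4 (2.78 and 2.77, overlapping), KLF11 (0.685) and KLF9 (0.169) below it. KPC control cells held Klf6 at 37.4 FPKM, Klf5 at 22.5, Klf4 and Klf2 at 20.2 and 19.1 (overlapping), Klf3 at 14.6, Klf10 at 13.3, Klf13 at 10.3, Klf9 at 6.53, Klf7 at 3.57 and Klf11 at 2.36. KPC control tumours held Klf2 at 84.7 FPKM, Klf6 and Klf4 at 62.7 and 40.5 (overlapping), Klf10 and Klf5 at 23.3 and 20.1 (overlapping), Klf3 at 16.01, Klf9 and Klf13 at 12.03 and 11.6 (overlapping), Klf7 at 8.48 and Klf11 at 6.22. Tables were normalized separately, so no level was tested across them.

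**Figure D1:**
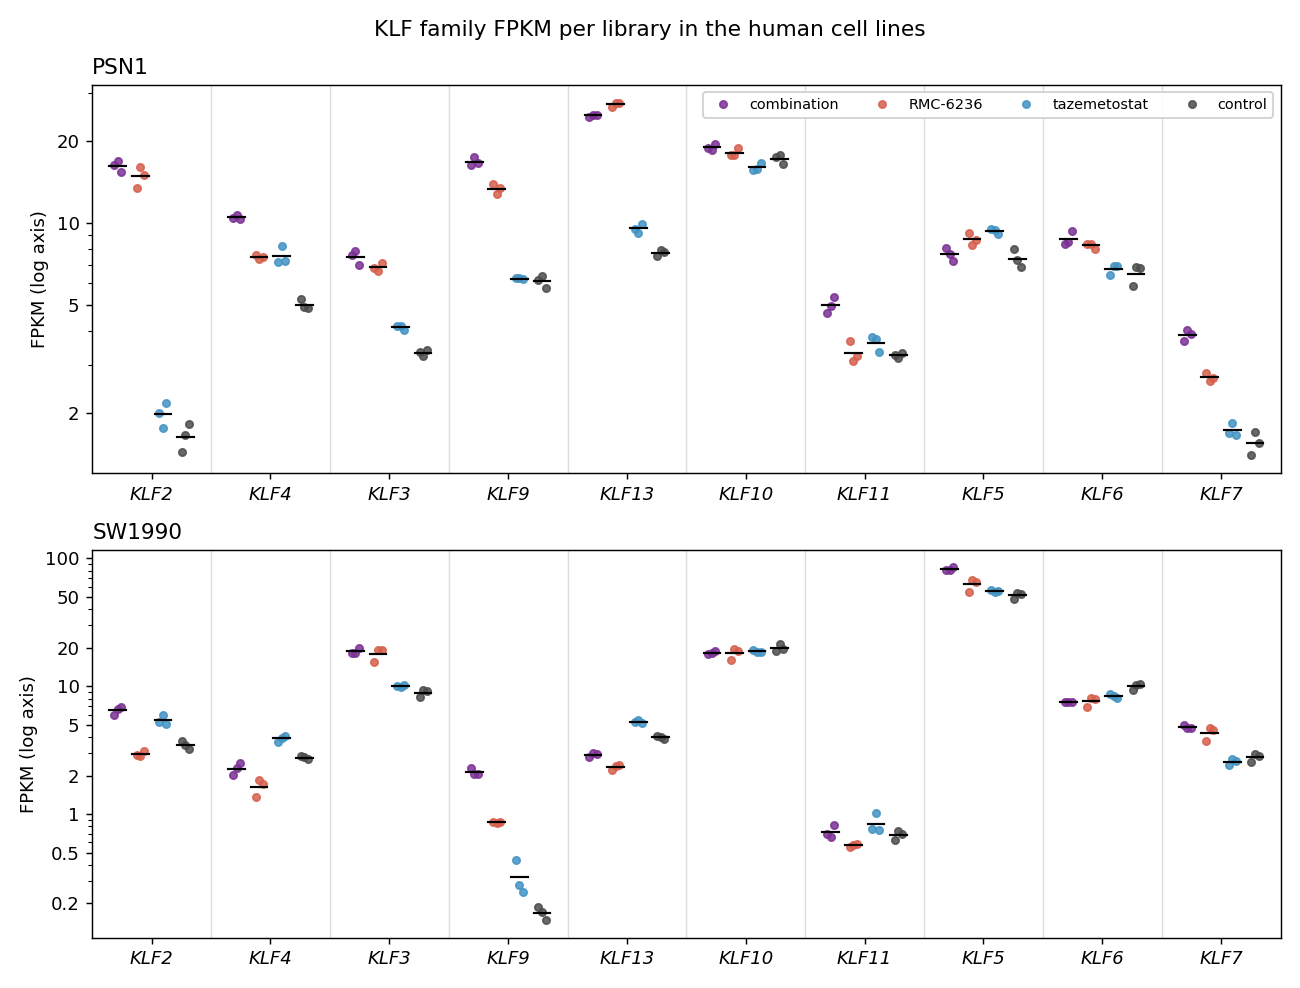
FPKM (log axis) of the 10 KLF genes in each library of PSN1 cells (top) and SW1990 cells (bottom), with 3 libraries per arm as points and the arm mean as a line. KLF2 stands between 13.4 and 16.9 FPKM in the combination and RMC-6236 arms of PSN1 and between 1.44 and 2.19 in the tazemetostat and control arms, while KLF9 in SW1990 is at 2.06 to 2.29 FPKM in the combination arm and at 0.149 to 0.189 in control.

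**Figure D2:**
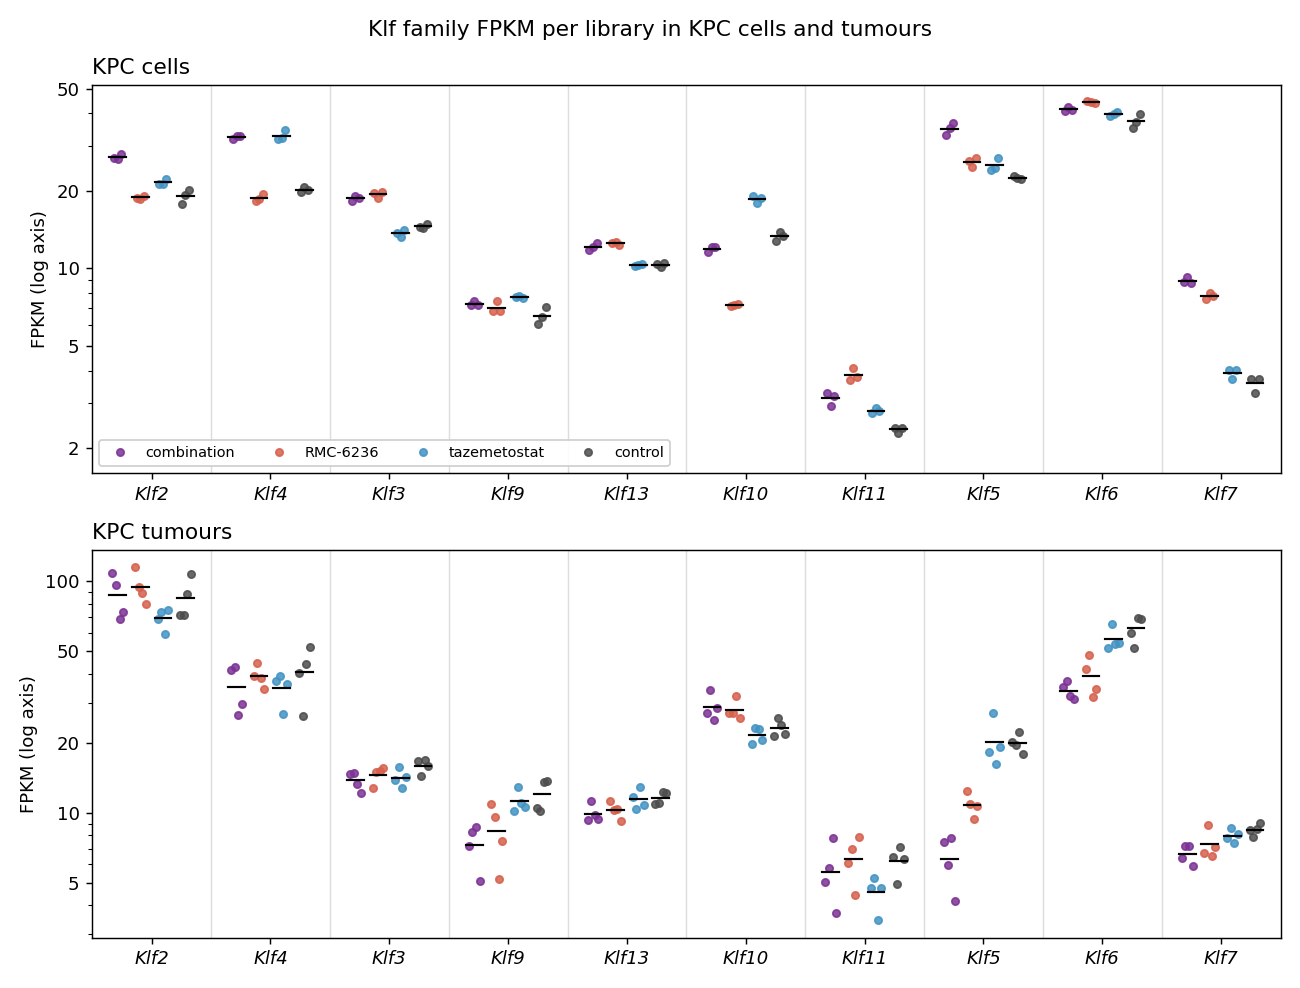
FPKM (log axis) of the 10 Klf genes in each library of KPC cells (top, 3 libraries per arm) and KPC orthotopic tumours (bottom, 4 per arm), with arm means as lines. Klf5 in tumours is lowest in the combination arm, between 4.17 and 7.78 FPKM, with control tumours between 18.0 and 22.3 FPKM.

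Of all members, KLF2 in PSN1 and KLF9 in SW1990 varied most across the arms of a table: the highest arm mean was 9.84 and 12.6 times the lowest. The KLF9 ratio is a description only: its SW1990 control mean was 0.169 FPKM, and only its combination libraries there reached 1 FPKM. KLF10 in SW1990 varied least, at 1.10 times. DUSP6, a phosphatase that is itself an ERK target, was read as a check of the RMC-6236 arms. It averaged 6.56 FPKM with RMC-6236 and 80.2 in control in PSN1, 0.123 with RMC-6236 and 32.3 in control in SW1990, 14.7 with RMC-6236 and 106 in control in KPC cells, and 10.9 with RMC-6236 and 59.8 in control in tumours. EZH2, the target of tazemetostat, averaged 9.765 FPKM with RMC-6236 and 15.8 in control in PSN1. These means were 5.83 and 9.42 in SW1990, 6.30 and 11.8 in KPC cells, and 5.43 and 5.41 in tumours. With tazemetostat EZH2 averaged 15.3, 12.9, 11.2 and 6.57 FPKM in the same order. EZH2 RNA does not measure inhibition of the enzyme, so it gives no check of the tazemetostat arms. Libraries had 11489 to 13414 genes at 1 FPKM or more. Differences below are on the log2(FPKM + 1) scale, given with their standard error from limma and a p-value adjusted over all genes tested in the table (Benjamini-Hochberg, threshold 0.05). That scale understates the change of low genes. Comparisons that use the same control libraries share their error.

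On this scale, with RMC-6236, KLF2, KLF13 and KLF9 rose most in PSN1, KLF3 in SW1990 and Klf7 in KPC cells. KLF13 and KLF4 fell most in SW1990 and Klf10 in KPC cells. In PSN1, 8 of 10 KLF genes passed, all 8 higher, where 80.4% of all 13358 genes tested passed, 45.8% higher and 34.6% lower. The median difference of the 10 was 0.52, beside 0.08 for all genes, and 3 of 10 reached 1 log2 unit, which 11.2% of all genes did. Those at 1 log2 unit were 4 with a pseudocount of 0.1 and 2 after median-ratio rescaling of the libraries. In SW1990, 8 of 9 tested members passed, 4 higher and 4 lower (72.4% of 12913 genes passed, 30.7% higher and 41.7% lower), and 0 of 9 reached 1 log2 unit (8.06% of all). With a pseudocount of 0.1, and also after rescaling, 1 of 9 did. KLF11 was not tested in SW1990, where 1 of 12 libraries reached 1 FPKM, and KLF9 was tested there only through the 3 combination libraries. Its combination values there were therefore bound to be high, and without it 7 of 8 members passed with RMC-6236, 3 higher and 4 lower. The SW1990 member median with RMC-6236 was -0.13, beside -0.06 for all genes, and -0.15 without KLF9. In KPC cells 8 of 10 passed, 6 higher and 2 lower (73.7% of 12567 genes passed, 37.9% higher and 35.8% lower), with a median of 0.22 beside 0.02 for all genes. Of the 2 lower calls in KPC cells, that of Klf4 (-0.10 ± 0.04, adjusted p = 0.019) was lost without control replicate 2 (adjusted p = 0.066) or RMC-6236 replicate 1 or 2 (0.075 and 0.051). Since most genes passed in each line, the counts do not set the family apart, and the sizes and directions of single members carry the description.

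The combination against control gave 9 of 10 members in PSN1, all higher (82.6% of genes passed, 45.5% higher and 37.1% lower), with a median of 0.93 beside 0.07 for all genes. The PSN1 count was 8 after median-ratio rescaling. The combination gave 8 of 9 in SW1990, 5 higher and 3 lower (79.2%, 38.3% higher and 40.9% lower), with a median of 0.62 beside -0.02 for all genes. Without KLF9 it gave 7 of 8, 4 higher and 3 lower, with a median of 0.25. It gave 10 of 10 in KPC cells, 9 higher and 1 lower (76.4%, 37.8% higher and 38.7% lower), with a median of 0.32 beside -0.0023 for all genes. Tazemetostat against control moved fewer and less: 5 of 10 in PSN1 (4 higher and 1 lower, where 46.0% of genes passed, 23.6% higher and 22.5% lower), 5 of 9 in SW1990 (4 higher and 1 lower, where 37.5% passed, 23.1% higher and 14.4% lower; 4 of 8, 3 higher and 1 lower, without KLF9) and 6 of 10 in KPC cells (all higher, where 44.1% passed, 18.6% higher and 25.5% lower). The 1 lower call in PSN1 was KLF10 (-0.10 ± 0.04, adjusted p = 0.039). It was lost without the filter (adjusted p = 0.095), with plain eBayes (0.055), with only the compared arms (0.064), and without combination replicate 1 (0.050), control replicate 1 or 2 (0.11 and 0.14) or tazemetostat replicate 1 or 2 (0.12 and 0.11). The KPC count with tazemetostat was 7, with 6 higher and 1 lower, under a pseudocount of 0.1 and under a replicate block. It was 8 after median-ratio rescaling and 5 without the filter, all higher. The Klf5 call in KPC cells was lost in 2 of 12 fits with 1 library left out (adjusted p up to 0.085). After median-ratio rescaling the share of higher calls among all genes called was 50%, in place of 61.7%, for SW1990. The member medians were 0.15, 0.15 and 0.16, beside -0.0036, 0.04 and -0.04 for all genes.

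**Figure D3:**
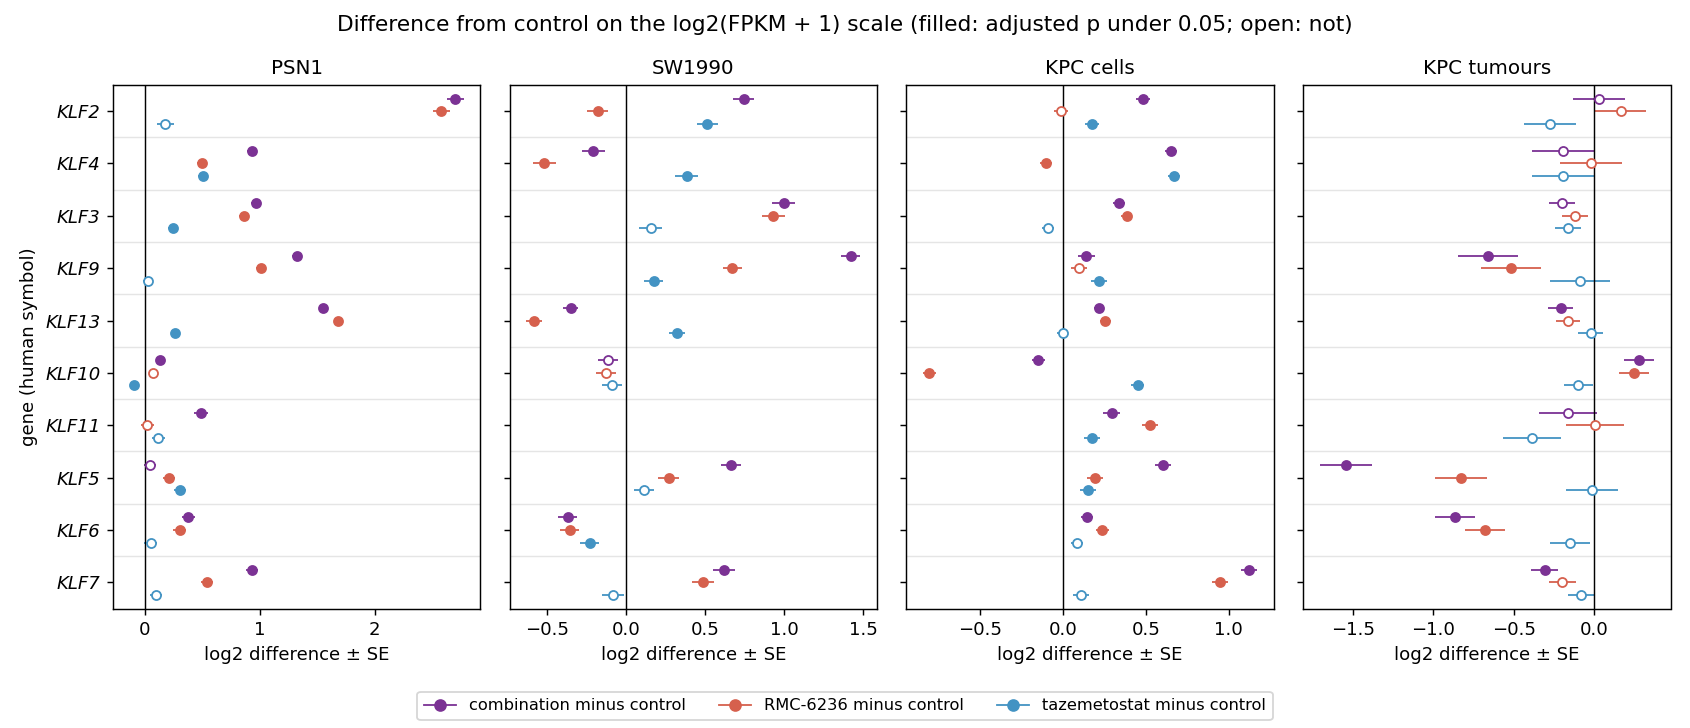
Difference of each treated arm from control on the log2(FPKM + 1) scale, with its standard error, for the 10 KLF genes in PSN1, SW1990, KPC cells and KPC tumours (filled points passed the adjusted threshold of 0.05, open points did not; each panel has its own horizontal scale). KLF2, KLF13 and KLF9 lie farthest to the right in PSN1, KLF9 in SW1990 and Klf7 in KPC cells, while Klf5 and Klf6 lie farthest to the left in tumours. KLF9 in SW1990 was tested only through its combination libraries, so its place is a description.

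KLF2, a factor of endothelial and lymphocyte quiescence that the ERK5-MEF2 axis induces, had the largest difference from control of the family in PSN1. It was at 16.3, 16.9 and 15.4 FPKM with the combination, 13.4, 16.1 and 15.0 with RMC-6236, 2.01, 1.77 and 2.19 with tazemetostat, and 1.44, 1.67 and 1.82 in control. The 6 libraries with RMC-6236 were all above the 6 without it. The difference was 2.58 ± 0.07 with RMC-6236 (adjusted p = 3.6e-12, 9.02 times the control mean) and 2.70 ± 0.07 with the combination (adjusted p = 1.7e-12). Tazemetostat alone gave 0.18 ± 0.07 (adjusted p = 0.061), which passed with a pseudocount of 0.1 (0.26, adjusted p = 0.036) and without control replicate 3, RMC-6236 replicate 1 or 2, or tazemetostat replicate 2 (adjusted p = 0.035, 0.040, 0.049 and 0.030). Adding it to RMC-6236 gave 0.12 ± 0.07 (95% interval -0.04 to 0.28, adjusted p = 0.18).

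SW1990 cells held KLF2 at 5.99, 6.65 and 6.86 FPKM with the combination, 2.88, 2.83 and 3.13 with RMC-6236, 5.23, 5.90 and 5.06 with tazemetostat, and 3.70, 3.49 and 3.23 in control. Here the 6 libraries with tazemetostat were above the 6 without. KLF2 rose by 0.51 ± 0.07 with tazemetostat (adjusted p = 5.0e-05) and was 0.93 ± 0.07 higher in the combination than with RMC-6236 (adjusted p = 1.2e-07). RMC-6236 alone gave -0.18 ± 0.07 (adjusted p = 0.024), a call lost when libraries were rescaled (-0.11, adjusted p = 0.16), without the filter (adjusted p = 0.057), or without control replicate 1 (adjusted p = 0.090), control replicate 2 (0.056) or RMC-6236 replicate 2 (0.072). In KPC cells Klf2 was at 26.7, 26.5 and 27.8 FPKM with the combination, 18.8, 18.7 and 19.1 with RMC-6236, 21.3, 21.2 and 22.3 with tazemetostat, and 17.7, 19.3 and 20.1 in control. The RMC-6236 and control libraries overlapped, and the combination was higher than RMC-6236 by 0.49 ± 0.04 (adjusted p = 9.2e-07). The arm mean of KLF2 was highest with the combination in all 3 lines, with the RMC-6236 arm next to it and overlapping in PSN1 and lowest in SW1990.

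KLF4, one of the reprogramming factors and an activator of epithelial differentiation genes, was higher with tazemetostat in all 3 lines. In PSN1 it was at 10.4, 10.7 and 10.3 FPKM with the combination, 7.63, 7.36 and 7.49 with RMC-6236, 7.19, 8.19 and 7.27 with tazemetostat, and 5.24, 4.93 and 4.88 in control. Each drug alone gave about the same difference, 0.50 ± 0.04 for RMC-6236 and 0.51 ± 0.04 for tazemetostat, and the combination gave 0.93 ± 0.04 (adjusted p = 2.6e-07, 1.1e-06 and 3.7e-10). The combination libraries lay above all others, and the effects of the drugs added on this scale within their error (interaction -0.07 ± 0.06, 95% interval -0.20 to 0.07).

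In SW1990 KLF4 fell with RMC-6236: it was at 2.004, 2.28 and 2.51 FPKM with the combination, 1.36, 1.83 and 1.71 with RMC-6236, 3.68, 3.93 and 4.11 with tazemetostat, and 2.83, 2.77 and 2.70 in control. The differences were -0.52 ± 0.07 for RMC-6236 (adjusted p = 2.9e-05), 0.38 ± 0.07 for tazemetostat (adjusted p = 0.0014) and -0.21 ± 0.07 for the combination (adjusted p = 0.020). The combination call was lost without combination replicate 1 (-0.15, adjusted p = 0.10) or control replicate 1 (-0.20, adjusted p = 0.052). KPC cells held Klf4 at 31.8, 32.6 and 32.6 FPKM with the combination, 18.3, 18.6 and 19.4 with RMC-6236, 31.9, 32.1 and 34.5 with tazemetostat, and 19.9, 20.6 and 20.1 in control. The tazemetostat arm was 1.62 times control, the combination 1.73 times RMC-6236, and neither pair overlapped. Klf4 rose by 0.67 ± 0.04 with tazemetostat (adjusted p = 2.0e-08) and was 0.76 ± 0.04 higher in the combination than with RMC-6236 (adjusted p = 5.0e-09).

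KLF3, the CtBP-recruiting repressor, rose with RMC-6236 in all 3 lines. SW1990 cells had 18.1, 18.3 and 19.9 FPKM with the combination, 15.6, 19.0 and 19.3 with RMC-6236, 10.004, 9.79 and 10.3 with tazemetostat, and 8.26, 9.27 and 9.21 in control. On the log2(FPKM + 1) scale KLF3 was the member with the largest difference between RMC-6236 and control in that line, 0.93 ± 0.07 (adjusted p = 7.1e-08). KLF9, a low gene there, had a larger ratio of means, with 0.863 FPKM with RMC-6236 and 0.169 in control. For KLF3, all 6 libraries with RMC-6236 lay above the other 6. The rise was 0.86 ± 0.04 in PSN1 (6.87 ± 0.22 FPKM with RMC-6236 and 3.34 ± 0.08 in control, SD, n = 3 each; adjusted p = 6.7e-10) and 0.39 ± 0.03 in KPC cells (adjusted p = 3.3e-07). Adding tazemetostat to RMC-6236 moved KLF3 by 0.11 ± 0.04 in PSN1 (adjusted p = 0.041). That call was lost without combination replicate 1 or 2 (adjusted p = 0.12 and 0.16), RMC-6236 replicate 1 or 2 (0.084 and 0.13) or tazemetostat replicate 2 (0.051), without the filter (0.074) and with only the compared arms in the fit (0.083).

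KLF13 and KLF9 recruit SIN3A, and KLF13 is known for controlling chemokine expression in T lymphocytes while KLF9 is induced by glucocorticoid and thyroid hormone. PSN1 cells had KLF13 at 24.5, 24.9 and 24.9 FPKM with the combination, 26.5, 27.6 and 27.5 with RMC-6236, 9.49, 9.21 and 9.93 with tazemetostat, and 7.56, 7.95 and 7.83 in control. It rose by 1.68 ± 0.03 (adjusted p = 7.2e-14) with RMC-6236, and the combination stood 0.13 ± 0.03 below RMC-6236 alone (adjusted p = 0.0030). KLF13 in SW1990 went the other way: 2.79, 3.02 and 2.95 FPKM with the combination, 2.20, 2.37 and 2.44 with RMC-6236, 5.21, 5.42 and 5.12 with tazemetostat, and 4.10, 4.03 and 3.88 in control. It fell by 0.58 ± 0.05 with RMC-6236 (adjusted p = 1.4e-07) and rose by 0.32 ± 0.05 with tazemetostat (adjusted p = 0.00019). In KPC cells the RMC-6236 difference was 0.26 ± 0.03 (12.5 FPKM with RMC-6236 and 10.3 in control on average, adjusted p = 7.9e-06).

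KLF9 in PSN1 was at 16.3, 17.4 and 16.6 FPKM with the combination, 13.9, 12.7 and 13.4 with RMC-6236, 6.27, 6.25 and 6.21 with tazemetostat, and 6.19, 6.39 and 5.75 in control. Tazemetostat and control libraries overlapped, and the combination libraries all lay above those with RMC-6236. The rise with RMC-6236 was 1.01 ± 0.04 (adjusted p = 1.1e-10) and the combination added 0.31 ± 0.04 to it (adjusted p = 3.0e-05). KLF9, the lowest member in SW1990 controls, was there at 2.29, 2.06 and 2.06 FPKM with the combination, 0.865, 0.850 and 0.873 with RMC-6236, 0.441, 0.280 and 0.245 with tazemetostat, and 0.189, 0.170 and 0.149 in control. The 4 arms did not overlap. As the gene passed the filter only through the combination arm, where it is high, its differences of 1.42 ± 0.06 for the combination and 0.67 ± 0.06 for RMC-6236 from control are given as a description. The KPC difference for RMC-6236 did not pass (7.04 FPKM with RMC-6236 and 6.53 in control on average). The combination there gave 0.14 ± 0.05 (adjusted p = 0.018), a call lost without combination replicate 2 (0.13, adjusted p = 0.056) or control replicate 1 (0.098, adjusted p = 0.090).

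KLF10 and KLF11, the TGF-beta-inducible repressors, moved most in KPC cells. Klf10 was at 11.5, 12.1 and 12.1 FPKM with the combination, 7.15, 7.19 and 7.28 with RMC-6236, 19.0, 17.9 and 18.8 with tazemetostat, and 12.8, 13.9 and 13.3 in control. None of the 4 arms overlapped. It fell by 0.80 ± 0.04 with RMC-6236 (adjusted p = 6.3e-10), rose by 0.45 ± 0.04 with tazemetostat (adjusted p = 1.3e-06), and in the combination lay 0.15 ± 0.04 below control (adjusted p = 0.0031). Klf11 averaged 3.13 ± 0.19 FPKM with the combination, 3.85 ± 0.21 with RMC-6236, 2.80 ± 0.07 with tazemetostat and 2.36 ± 0.06 in control (SD, n = 3 each), and rose by 0.53 ± 0.05 with RMC-6236 (adjusted p = 6.0e-07). In PSN1, KLF11 was at 4.67, 4.96 and 5.33 FPKM with the combination and between 3.10 and 3.80 in the other 9 libraries. It differed by 0.46 ± 0.06 between the combination and RMC-6236 (adjusted p = 2.2e-05). KLF10 stayed between 15.7 and 19.5 FPKM in PSN1 and between 16.1 and 21.3 in SW1990. In SW1990 it passed in 0 of the 5 limma comparisons, also at an unadjusted p under 0.05.

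KLF5, an activator expressed in proliferating epithelium, was higher with the combination in SW1990 and KPC cells. SW1990 cells had 80.8, 80.6 and 84.9 FPKM with the combination, 54.6, 67.6 and 64.8 with RMC-6236, 56.5, 54.9 and 55.5 with tazemetostat, and 48.4, 53.5 and 52.5 in control. The combination libraries lay above the other 9, and differed by 0.66 ± 0.06 from control (adjusted p = 5.1e-07) and by 0.40 ± 0.06 from RMC-6236 (adjusted p = 0.00022). KPC cells had Klf5 at 33.0, 35.0 and 36.6 FPKM with the combination, 26.0, 24.8 and 27.0 with RMC-6236, 24.1, 24.6 and 26.9 with tazemetostat, and 22.9, 22.4 and 22.3 in control. The combination differed from RMC-6236 by 0.41 ± 0.05 (adjusted p = 1.5e-05). PSN1 cells had 8.07, 7.68 and 7.22 FPKM with the combination, 9.17, 8.31 and 8.68 with RMC-6236, 9.52, 9.39 and 9.11 with tazemetostat, and 7.99, 7.32 and 6.86 in control. There KLF5 rose with each drug alone, by 0.21 ± 0.05 (RMC-6236) and 0.30 ± 0.05 (tazemetostat; adjusted p = 0.0023 and 0.00045), while the combination and control libraries overlapped.

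KLF7, known from neuronal development and adipocyte biology, rose with RMC-6236 in all 3 lines and was the leading member in KPC cells. Klf7 was there at 8.81, 9.25 and 8.75 FPKM with the combination, 7.57, 8.03 and 7.84 with RMC-6236, 4.03, 3.72 and 4.02 with tazemetostat, and 3.72, 3.27 and 3.72 in control. All 6 libraries with RMC-6236 lay above the other 6. The rise with RMC-6236 was 0.95 ± 0.05 (adjusted p = 1.4e-09), with 0.54 ± 0.05 in PSN1 and 0.49 ± 0.07 in SW1990 (adjusted p = 6.9e-07 and 2.9e-05). KLF6, a broadly expressed activator of the p21 gene, differed by 0.30 ± 0.06 in PSN1, -0.36 ± 0.06 in SW1990 and 0.24 ± 0.04 in KPC cells with RMC-6236 (adjusted p = 0.00026, 0.00012 and 6.5e-05).

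The design also asks whether tazemetostat acts differently once RAS is inhibited. The combination against RMC-6236 gave 7 of 10 members in PSN1 (5 higher and 2 lower, where 54.2% of all genes passed, 24.1% higher and 30.1% lower). It gave 5 of 9 in SW1990, all higher (48.0% of genes passed, 29.8% higher and 18.3% lower; among genes called 62% were higher, and 50.1% after rescaling). Without KLF9, whose call is no support for a count here, it gave 4 of 8. In KPC cells it gave 6 of 10, 5 higher and 1 lower (48.8% of genes passed, 20.3% higher and 28.5% lower). The interaction, the tazemetostat effect with RMC-6236 minus its effect without, passed for 6 of 10 members in PSN1, 4 positive and 2 negative (23.6% of all genes, 9.80% positive and 13.8% negative; 41.5% of called genes were positive, and 55.2% after rescaling). It passed for 2 of 9 in SW1990, both positive (15.2% of all genes, 9.03% positive and 6.19% negative), a count that was 4 after rescaling and 1 with a pseudocount of 0.1. One of the 2 is KLF9, so the count without it is 1 of 8, KLF2. In KPC cells it passed for 5 of 10, 3 positive and 2 negative (25.8% of all genes, 12.1% positive and 13.7% negative). KLF13 and KLF5 in PSN1 had negative interactions, -0.39 ± 0.04 and -0.47 ± 0.07 (adjusted p = 2.8e-05 and 0.00049), both being higher with tazemetostat alone and lower when it was added to RMC-6236 (-0.13 and -0.17). The fall of KLF5 on top of RMC-6236 (adjusted p = 0.016) was lost without combination replicate 3 (adjusted p = 0.073) or RMC-6236 replicate 1 (0.069). KLF11, KLF7, KLF9 and KLF10 in PSN1 had positive ones, 0.35, 0.29, 0.28 and 0.16.

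KLF9 in SW1990 had an interaction of 0.57 ± 0.09 (adjusted p = 0.00055) that missed the threshold with a pseudocount of 0.1 (0.59, adjusted p = 0.11), and it is a description for the same reason as its differences from control. KLF2 had positive interactions in SW1990 (0.41 ± 0.09, adjusted p = 0.0090) and KPC cells (0.32 ± 0.06, adjusted p = 0.0014). Those of KLF4 did not pass in any line: -0.07 in PSN1, -0.07 ± 0.10 in SW1990 and 0.08 ± 0.05 in KPC cells, with 95% intervals from -0.30 at the lowest to 0.19 at the highest. KLF5 reached 0.29 ± 0.09 in SW1990 (adjusted p = 0.052; passed without control replicate 1 or RMC-6236 replicate 1 or 2, at 0.034, 0.028 and 0.017) and 0.26 ± 0.07 in KPC cells (adjusted p = 0.013). Klf11 in KPC cells had the most negative value there, -0.41 ± 0.07 (adjusted p = 0.00089). The positive interactions of KLF10 in PSN1 and the negative one of Klf6 in KPC cells (-0.18) were at adjusted p = 0.034 and 0.024. The first was lost without any of 8 libraries (2 in each of the 4 arms, adjusted p up to 0.082), the second without combination replicate 1 (0.055), RMC-6236 replicate 1 (0.051) or tazemetostat replicate 3 (0.055).

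**Figure D4:**
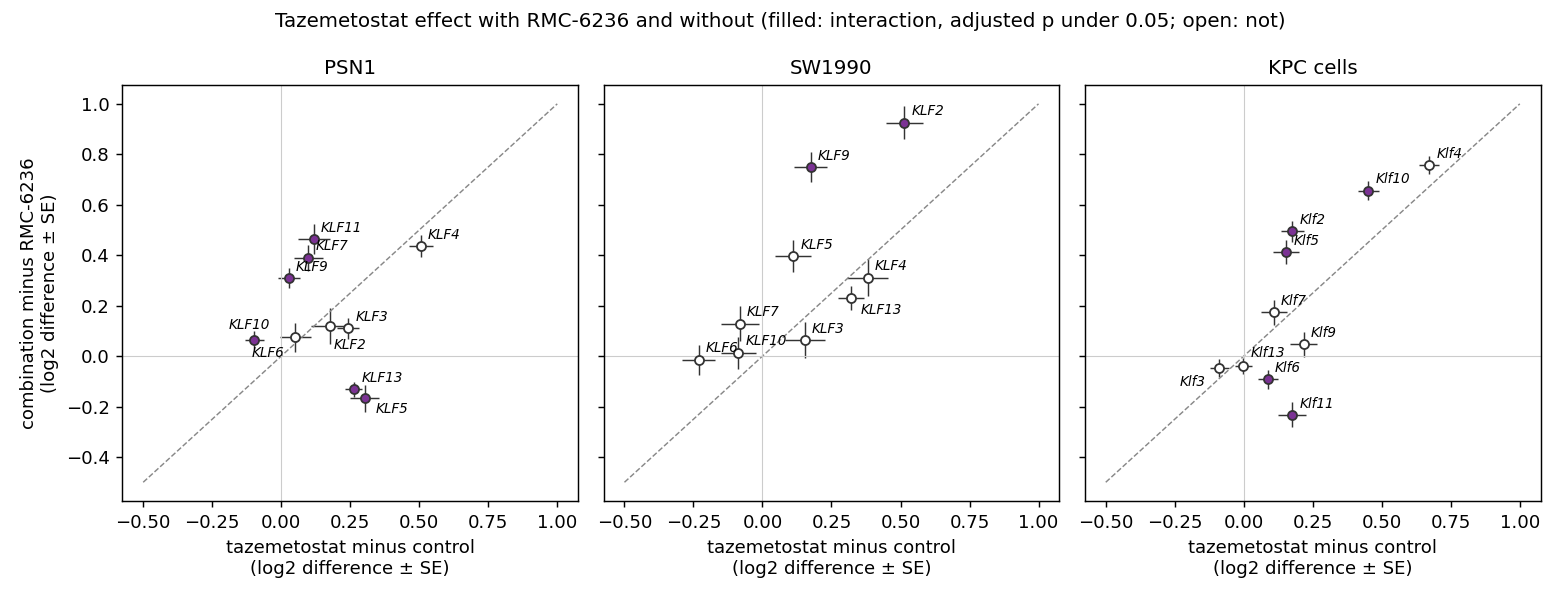
Tazemetostat effect on each KLF gene with RMC-6236 present (combination minus RMC-6236, vertical) and absent (tazemetostat minus control, horizontal), as log2 differences with standard errors in PSN1, SW1990 and KPC cells. Filled points have an interaction with adjusted p under 0.05, open points do not, and the dashed line marks equal effects. KLF4 lies near the line in all 3 lines, KLF2 and KLF9 (0.41 and 0.57) lie above it in SW1990, and KLF13 and KLF5 lie below it in PSN1. KLF9 in SW1990 was tested only through its combination libraries, so its place is a description.

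In KPC tumours Klf5 and Klf6 were lower with RMC-6236 and with the combination, and Klf10 was higher. RMC-6236 against control passed for 4 of 10 members, 1 higher and 3 lower (39.4% of 13545 genes passed, 20.3% higher and 19.2% lower), and the combination against control for 6 of 10, 1 higher and 5 lower (52.4%, 26.7% higher and 25.7% lower). The RMC-6236 count was 2 without the filter on low values, and 2 without control replicate 3, control replicate 4 or RMC-6236 replicate 3. The member medians were -0.14 and -0.20, beside 0.0087 and -0.0007 for all genes. In bulk tumours, fewer cells of a type and less RNA per cell cannot be told apart. Tazemetostat against control passed for 0 of 10 members in limma, also 0 of 10 at an unadjusted p under 0.05, where 0 of all genes passed the adjusted test and 1023 had an unadjusted p under 0.05.

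Klf5 had the largest difference in tumours. It was at 7.504, 5.96, 7.78 and 4.17 FPKM with the combination, 12.4, 10.9, 9.47 and 10.7 with RMC-6236, 18.3, 27.0, 16.2 and 19.3 with tazemetostat, and 20.2, 19.7, 22.3 and 18.0 in control. The combination, RMC-6236 and control arms did not overlap one another. Klf5 fell by 0.83 ± 0.16 with RMC-6236 (adjusted p = 0.0012) and by 1.55 ± 0.16 with the combination (adjusted p = 2.7e-06), 0.317 times the control mean. The combination lay 0.72 ± 0.16 below RMC-6236 (adjusted p = 0.013), the only member of 10 to pass that comparison (8.13% of genes passed, 5.16% higher and 2.97% lower). The interaction was -0.71 ± 0.23 (adjusted p = 0.15), and 0 of 10 members passed it in limma, with 1 at an unadjusted p under 0.05 (1.86% of genes passed the adjusted test).

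Klf6 was at 35.0, 37.0, 32.0 and 31.1 FPKM with the combination, 41.9, 48.0, 31.6 and 34.4 with RMC-6236, 51.5, 65.4, 53.7 and 54.2 with tazemetostat, and 60.0, 51.8, 69.8 and 69.0 in control. All 8 libraries with RMC-6236 lay below all 8 without it. The fall was 0.68 ± 0.13 with RMC-6236 (adjusted p = 0.00070) and 0.87 ± 0.13 with the combination (adjusted p = 4.4e-05), and the combination did not differ from RMC-6236 beyond error (-0.19 ± 0.13, 95% interval -0.45 to 0.08, adjusted p = 0.41). Klf9 fell by 0.66 ± 0.19 with the combination (7.31 ± 1.62 FPKM, against 12.03 ± 1.92 in control, SD, n = 4 each; adjusted p = 0.0084) and Klf7 by 0.30 ± 0.08 (adjusted p = 0.0068).

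Klf10 was the member that stood higher in tumours: 27.1, 34.0, 25.1 and 28.4 FPKM with the combination, 27.0, 27.1, 31.9 and 25.7 with RMC-6236, 19.8, 23.2, 23.2 and 20.7 with tazemetostat, and 21.5, 25.6, 24.1 and 21.9 in control. The difference was 0.25 ± 0.09 with RMC-6236 (adjusted p = 0.042) and 0.28 ± 0.09 with the combination (adjusted p = 0.018). Both sat close to the threshold: the RMC-6236 call was lost without control replicate 1, 3 or 4 (adjusted p = 0.11, 0.060 and 0.10) or RMC-6236 replicate 1, 2 or 3 (0.061, 0.057 and 0.13), and the combination call without combination replicate 2 (0.066) or control replicate 1 or 4 (0.057 and 0.051). Klf9 with RMC-6236 (-0.51 ± 0.19, adjusted p = 0.041) was lost without control replicate 3 or 4 (0.11 and 0.10), RMC-6236 replicate 3 or 4 (0.13 and 0.087), combination replicate 1 (0.051) or tazemetostat replicate 4 (adjusted p = 0.050). Klf13 with the combination (-0.21 ± 0.08, adjusted p = 0.033) was lost without combination replicate 1, 3 or 4 (0.091, 0.066 and 0.080) or control replicate 3 or 4 (0.089 and 0.087).

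Klf2 and Klf4, both higher with tazemetostat in KPC cells, passed no comparison in tumours. Klf2 was at 109, 97.0, 68.9 and 73.6 FPKM with the combination, 115, 94.9, 89.4 and 79.6 with RMC-6236, 69.1, 74.1, 59.1 and 75.1 with tazemetostat, and 71.5, 71.9, 88.0 and 108 in control. Klf4 was at 41.3, 42.6, 26.6 and 29.6 FPKM with the combination, 39.0, 44.5, 38.1 and 34.5 with RMC-6236, 37.0, 39.0, 26.7 and 36.1 with tazemetostat, and 40.1, 26.2, 43.8 and 51.9 in control. For both genes each treated arm overlapped the control arm. Klf3 (12.3 to 14.9 FPKM with the combination, against 14.4 to 16.9 in control) and Klf11 (3.72 to 7.80 FPKM with the combination, against 4.93 to 7.14 in control) also passed none. The 95% interval of the tazemetostat difference was -0.62 to 0.07 for Klf2 and -0.60 to 0.22 for Klf4.

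Markers of cell types moved with the same arms. For the counts below, 26.7% of all genes tested were higher and 25.7% lower than control with the combination. With RMC-6236, 20.3% were higher and 19.2% lower. The 6 epithelial markers summed to 840 to 1399 FPKM with the combination, 1445 to 2022 with RMC-6236, 2812 to 5153 with tazemetostat and 3111 to 3882 in control, and 4 of 6 were lower than control with RMC-6236 and with the combination. Their part in the lower Klf5, Klf6 and Klf9 was not tested. Endothelial markers, of interest beside Klf2, summed to 29.7 to 46.4 FPKM with the combination, 16.01 to 20.2 with RMC-6236, 14.9 to 18.5 with tazemetostat and 12.5 to 21.8 in control, with 10 of 10 higher in the combination than in control. Fibroblast markers were higher in 9 of 10 (3282 to 3831 FPKM with the combination, 857 to 1173 in control), macrophage markers in 9 of 10 (1530 to 2100 with the combination, 500 to 624 in control) and acinar markers in 11 of 11 tested (91.1 to 3204 with the combination, 12.3 to 44.1 in control). With RMC-6236, 7 of 10 fibroblast, 8 of 10 macrophage, 1 of 10 endothelial and 0 of 11 acinar markers were higher than control (2967 to 3949, 1179 to 1685, 16.01 to 20.2 and 5.54 to 95.7 FPKM). With the combination, neutrophil markers were higher than control in 5 of 5 tested genes (37.2 to 198 FPKM, against 7.01 to 28.7 in control), smooth muscle markers in 6 of 6 (171 to 582, against 15.3 to 29.7 in control), erythroid markers in 4 of 4 (69.9 to 177, against 29.6 to 46.6 in control), islet markers in 1 of 6 (0.308 to 726, against 2.43 to 11.6 in control), adipocyte markers in 1 of 3 (3.08 to 166, against 0.569 to 1.16 in control) and T cell markers in 1 of 1 (2.87 to 6.67, against 0.491 to 1.62 in control). No B cell marker was tested (1.37 to 7.46 FPKM with the combination, against 0.327 to 1.44 in control). In none of these lists was a marker at 0 in every library of the combination or control arms, other than Prss1 and Lep in control. Their part in the Klf values was not tested. In control cell lines the 6 epithelial markers were all above 1 FPKM, and of 10 endothelial markers 1 in PSN1, 1 in SW1990 and 0 in KPC cells were, with KDR at 0 in SW1990 and KPC cells and CDH5 at 0 in PSN1 and KPC cells. Marker sums also moved within cell lines. With RMC-6236, fibroblast markers summed to 116 to 118 FPKM in PSN1, 3.88 to 4.71 in SW1990 and 65.6 to 66.6 in KPC cells. In control they summed to 29.5 to 29.8, 0.909 to 1.22 and 41.5 to 42.4. Epithelial sums with RMC-6236 were 920 to 945, 1633 to 1730 and 2849 to 2883 FPKM. Those in control were 604 to 616, 1671 to 1786 and 3362.5 to 3492.

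**Figure D5:**
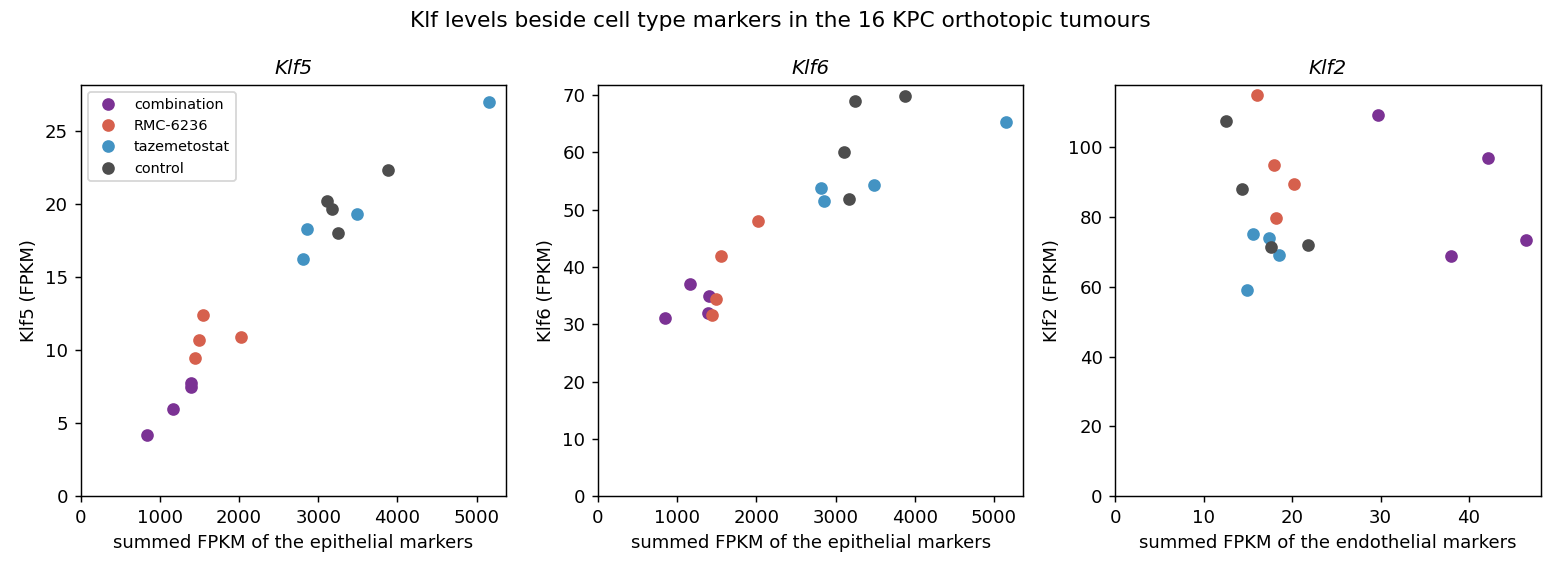
Klf5 and Klf6 against the summed FPKM of 6 epithelial markers, and Klf2 against that of 10 endothelial markers, in the 16 KPC orthotopic tumours (1 point per tumour library, coloured by arm). Libraries with RMC-6236 or the combination lie low on both axes for Klf5 and Klf6, while the 4 combination libraries, which have the highest endothelial sums, span 68.9 to 109 FPKM of Klf2.

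The rest of the family and its partners were counted from lists of textbook members. Of the 8 other KLF genes, 1 or 2 per table were tested. KLF16, a repressor of the same SIN3-binding branch, fell with RMC-6236 in each table, by 1.21 ± 0.04 in PSN1 (7.57 FPKM with RMC-6236 and 18.8 in control), 1.02 ± 0.04 in SW1990, 0.85 ± 0.06 in KPC cells and 0.35 ± 0.10 in tumours (adjusted p = 2.2e-11, 1.8e-10, 3.2e-08 and 0.017). Among the SP factors, the closest relatives of the family, 1 of 5 tested passed with RMC-6236 in PSN1, while SW1990 had 2 of 4, KPC cells 3 of 4 and tumours 1 of 5, where 80.4%, 72.4%, 73.7% and 39.4% of all genes passed. SP6 was at 1.55 FPKM with tazemetostat in PSN1, against 0.276 in control; at that control level it could pass the filter only through other arms, so these values are a description.

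Genes of the ERK5-MEF2 axis, which sits upstream of KLF2 and KLF4, were higher with RMC-6236 in 7 of 8 tested members in PSN1 and lower in 0 (45.8% of all genes were higher and 34.6% lower), with a median of 0.42 beside 0.08 for all genes. In SW1990, 3 of 8 were higher and 2 lower (30.7% and 41.7% of all genes), in KPC cells 5 and 2 (37.9% and 35.8%), and in tumours 2 and 1 (20.3% and 19.2%). The list joins kinases and MEF2 factors with the deacetylases HDAC5 and HDAC7, which repress MEF2 proteins. Its counts therefore do not measure the activity of the axis. HDAC5, a class IIa deacetylase that binds and represses MEF2 proteins, was higher in each table, by 1.49 ± 0.04, 1.12 ± 0.05, 1.04 ± 0.06 and 0.48 ± 0.13. MEF2A rose by 0.98 ± 0.03 in PSN1. Map3k2, a kinase of the axis, rose in PSN1 (0.69) and SW1990 (0.36) and fell in KPC cells (-0.57) and tumours (-0.92).

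Of the SIN3, CtBP, NCoR and HDAC corepressors and FHL3, 5 of 10 were higher and 4 lower with RMC-6236 in PSN1 (45.8% and 34.6% of all genes), 3 and 6 in SW1990 (30.7% and 41.7%), 3 and 5 in KPC cells (37.9% and 35.8%), and 0 and 1 in tumours (20.3% and 19.2%). FHL3, a LIM protein that binds KLF3 and CtBP, fell by 0.52, 0.77 and 0.59 in the 3 cell lines. Among 5 coactivators, WDR5, a subunit of histone H3 lysine 4 methyltransferase complexes, fell in all 4 tables, by 0.79, 0.91, 0.59 and 0.37, while the acetyltransferase KAT2B rose in all 4, by 1.17, 0.23, 0.66 and 0.27.

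The list of ubiquitin ligases and deubiquitinases gave 9 higher and 2 lower of 13 in PSN1 (45.8% and 34.6% of all genes), 2 and 5 of 13 in SW1990 (30.7% and 41.7%), 6 and 2 of 12 in KPC cells (37.9% and 35.8%) and 2 and 4 of 12 in tumours (20.3% and 19.2%). FBXO32 (atrogin-1), a ligase subunit best known from muscle wasting, was at 66.4 FPKM with RMC-6236 and 6.78 in control in PSN1, 19.2 with RMC-6236 and 1.45 in control in SW1990, 12.6 with RMC-6236 and 2.38 in control in KPC cells, and 12.6 with RMC-6236 and 6.01 in control in tumours. It rose by 3.11 ± 0.02, 3.05 ± 0.05, 2.01 ± 0.04 and 0.94 ± 0.17. USP10, a deubiquitinase, fell in all 4 tables, by 0.49, 0.78, 0.74 and 0.40.

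TGF-beta pathway genes, set beside KLF10 and KLF11, gave 5 higher and 4 lower of 10 with RMC-6236 in PSN1 (45.8% and 34.6% of all genes), 3 and 4 of 9 in SW1990 (30.7% and 41.7%), 5 and 4 of 11 in KPC cells (37.9% and 35.8%) and 2 and 4 of 11 in tumours (20.3% and 19.2%). The inhibitory Smad7 fell by 0.95 ± 0.11 in tumours (adjusted p = 2.5e-05).

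Of the textbook targets of KLF factors, 9 of 20 were higher and 10 lower with RMC-6236 in PSN1 (45.8% and 34.6% of all genes), 12 and 12 of 26 in SW1990 (30.7% and 41.7%), 8 and 10 of 21 in KPC cells (37.9% and 35.8%) and 8 and 7 of 27 in tumours (20.3% and 19.2%). CDKN1A, the p21 gene that KLF4 and KLF6 activate, rose by 1.97 ± 0.04 with RMC-6236 in PSN1 (14.9 FPKM, against 3.07 in control). With tazemetostat it rose by 1.40 ± 0.04 in PSN1 and by 1.28 ± 0.04 in KPC cells (15.7 FPKM, against 5.89 in control). ODC1, a target repressed by KLF4, fell by 1.73, 1.85 and 1.97 in the 3 cell lines with RMC-6236. CCND1 fell by 1.70 in PSN1, while Ccnd1 fell by 2.12 in KPC cells and 1.35 in tumours. KLF4 itself did not move alike. It averaged 7.49 FPKM with RMC-6236 and 5.02 in control in PSN1. In SW1990 these means were 1.63 and 2.77, and in KPC cells 18.8 and 20.2. The part of KLF factors in the changes of these targets was not tested. Tazemetostat alone gave 9 higher and 4 lower of 20 in PSN1 (23.6% and 22.5% of all genes), 11 and 4 of 26 in SW1990 (23.1% and 14.4%) and 8 and 9 of 21 in KPC cells (18.6% and 25.5%). With it MAOB, a monoamine oxidase gene that KLF11 regulates, rose by 0.82 ± 0.06 in PSN1 and 1.49 ± 0.07 in SW1990 (9.65 FPKM, against 2.79 in control).

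The genes whose pattern was most like that of the leading member of each table were found by the Pearson correlation of log2(FPKM + 1) over all its libraries, among tested genes with a mean of at least 5 FPKM. They were CTIF, CALCOCO1 and ORAI3 for KLF2 in PSN1 (r = 0.998 each, 12 libraries), AFAP1L2, KIF20A and ABHD2 for KLF3 in SW1990 (0.996, 0.996 and 0.995, 12 libraries), Pdlim4, Arrb1 and Trpm4 for Klf7 in KPC cells (0.996, 0.996 and 0.995, 12 libraries), and Gata5, Lrp5 and Cant1 for Klf5 in tumours (0.986, 0.985 and 0.984, 16 libraries). The points share their arms, so such values are a description of the 4 arm levels.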

How the data were processed

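RNA sequencing of 52 libraries was used: PSN1, SW1990 and KPC cells (3 per arm) and KPC orthotopic tumours (4 per arm). 15 further samples, from subcutaneous tumours, were not analysed here. The authors deposited FPKM values per gene in 1 table per model. FastQC 0.11.2, STAR 2.5.3a, StringTie 1.3.1c and hg38 are named in the submitters' processing notes; the mouse build and annotation are not given in the sources used here. FPKM keeps no read depth, so the depth behind each value is unknown and no counting interval can be given.

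Values were analysed as log2(FPKM + 1), where the pseudocount lowers the change of low genes. Genes with at least 1 FPKM in 3 (cells) or 4 (tumours) libraries were tested. Each table was fitted on its own with limma 3.58.1 (R 4.3.3), with a mean for each arm, a trended, robust eBayes step, 5 contrasts and Benjamini-Hochberg adjustment over all genes of the table. The code was tested on simulated data.

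The alternatives were a pseudocount of 0.1, no filter, median-ratio rescaling, a replicate block, plain eBayes, only the compared arms, and each library left out. Members of the family are described in every table; from the other lists, up to 4 genes per list and comparison with the largest difference past the threshold could be named. The members and lists were chosen with earlier results of these data known. Promoter sequences are RefSeq's, and coordinates are of build GRCm38.p6.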

Additional observations from a re-analysis of the deposited data

Results flagged for a closer look

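For several KLF genes every library of a treated arm lay above the arm it was compared with in one model, and every library lay below it in another. The difference between models was not tested, since the tables were normalized separately. How many of all genes did the same was not counted, so the list does not set the family apart. With RMC-6236, 45.8% of all genes tested were higher and 34.6% lower in PSN1, and 30.7% and 41.7% in SW1990. Values are log2 differences. With RMC-6236 against control, KLF2 was at 2.58 in PSN1 and -0.18 in SW1990, KLF4 at 0.50 in PSN1 and -0.52 in SW1990, KLF6 at 0.30 in PSN1 and -0.36 in SW1990, and KLF13 at 1.68 in PSN1 and -0.58 in SW1990. With the combination against control, KLF4 was at 0.93 in PSN1 and -0.21 in SW1990, KLF6 at 0.38 in PSN1 and -0.37 in SW1990, KLF10 at 0.13 in PSN1 and -0.11 in SW1990, and KLF13 at 1.55 in PSN1 and -0.35 in SW1990. The SW1990 value of KLF10 did not pass the test. Its PSN1 value was the smallest of the 9 called there, a count that was 8 after rescaling. The combination against RMC-6236 gave KLF5 -0.17 in PSN1 and 0.40 in SW1990, and KLF13 -0.13 in PSN1 and 0.23 in SW1990. Some of these calls were lost in fits with 1 library left out. The SW1990 call of KLF2 with RMC-6236 was lost in 3 of 12 such fits, and also after rescaling and without the filter. The SW1990 call of KLF4 with the combination was lost in 2 of 12. So was the PSN1 call of KLF5 in the combination against RMC-6236, also in 2 of 12.

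Between KPC cells and KPC tumours, RMC-6236 against control gave Klf5 0.19 in cells and -0.83 in tumours, Klf6 0.24 in cells and -0.68 in tumours, and Klf10 -0.80 in cells and 0.25 in tumours. The combination against control gave Klf5 0.61 in cells and -1.55 in tumours, Klf6 0.15 in cells and -0.87 in tumours, Klf7 1.12 in cells and -0.30 in tumours, and Klf9 0.14 in cells and -0.66 in tumours. The Klf9 call in KPC cells was lost without combination replicate 2 (adjusted p = 0.056) or control replicate 1 (0.090). The tumour call of Klf10 with RMC-6236 was lost in 6 of 16 fits with 1 library left out (adjusted p up to 0.13). The combination against RMC-6236 gave Klf5 0.41 in cells and -0.72 in tumours. None of the 40 groups of 4 tumour libraries had a library far from the other 3.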

How the results depend on the processing

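The number of KLF genes past the threshold stayed within 1.5 times the reported count in 18 of 20 comparisons under each alternative. The exceptions were RMC-6236 against control in tumours, 4 genes, with 2 when no filter was used and 2 to 4 with each library left out (2 without control replicate 3 or 4 or RMC-6236 replicate 3), and the SW1990 interaction, 2 genes, with 4 after rescaling and 1 with a pseudocount of 0.1. The causes were not tested. No difference of a KLF gene that passed the threshold changed sign under any alternative, nor did the uncalled ones that were followed. Other uncalled differences, such as that of KLF10 with the combination in SW1990, were not followed. Rescaling moved the share of higher calls among all genes to 50.1% (62% as deposited) for the combination against RMC-6236 in SW1990, to 50% (61.7% as deposited) for tazemetostat against control there, and to 55.2% (41.5% as deposited) for the PSN1 interaction. Deviations of same-numbered libraries correlated above 0.1 for PSN1 in 2 of 18 pairs, for SW1990 in 3 of 18, for KPC cells in 1 of 18 and for tumours in 4 of 24. Different-numbered libraries did so in 0 of 36, 5 of 36, 2 of 36 and 28 of 72 pairs. In SW1990, same-numbered RMC-6236 and control libraries correlated at 0.39, 0.20 and 0.05, and different-numbered ones between -0.33 and 0.18. These values do not settle whether the numbers pair libraries in some arms. With the replicate block, all 20 counts stayed within 1.5 times and 4 named calls were lost (Klf9 with RMC-6236 in tumours, KLF3 in the combination against RMC-6236, and KLF10 with tazemetostat and in the interaction in PSN1; adjusted p = 0.064, 0.062, 0.054 and 0.051). Among the uncalled differences that were followed, 1 passed with the block (KLF5 interaction in SW1990, adjusted p = 0.032). Without read counts, the precision of low genes such as KLF9 and KLF11 in SW1990 could not be set.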
